A study of Rattus norvegicus with 24 samples.

Results

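Col1a1, Col3a1, Serpinh1 and P4ha1, 4 of the 1422 genes with a value on at least 1 array, were followed in rat kidney as genes of fibrillar collagen and its processing. They were taken by gene symbol, with earlier results of these data known, so their ranks among all probes are a description. Each was read by 1 probe with a value. The measurements were log ratios of total RNA between 2 rats of a strain on 24 cDNA arrays with 2 dyes, Cy5 and Cy3. The strains were SS, the Dahl salt-sensitive rat, and SS-13BN/Mcw, a consomic rat with chromosome 13 of the Brown Norway strain on the SS background. The array titles set LS against HS, read here as low salt and high salt, either overnight or at 3 days. This gave 4 groups, SS overnight, SS 3 days, SS-13BN/Mcw overnight and SS-13BN/Mcw 3 days, each with 3 rat pairs, and a pair was placed on 2 arrays with its dyes exchanged.

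In each pair the lower rat number was 1, 2 or 3, and that number names the pair. The same low numbers recur at both times of a strain, so the 2 groups of a strain were taken to share those 3 rats. The higher-numbered rat of a pair was a different one overnight and at 3 days. The sources used here do not give salt contents, ages or which numbered rat had which diet. They do not give the log base or the numerator of the deposited ratios either, so values are in log ratio units, signs are called the positive and the negative side, and no sign is tied to a diet. Values were centred on the median of their array, and swapped arrays were averaged with their signs as deposited. Over all probes the raw correlation of swapped arrays ranged from -0.0595 to 0.749 and was below 0 in 4 of 12 pairs. With the mean of each orientation removed it was above 0 in 12 of 12 pairs, and the arrays were therefore not turned by dye. The signs and calls given here rest on that choice. With 1 array of each pair turned, 325 of 1139 probes passed in SS overnight in place of 13, and most values of the 4 genes changed sign. The arrays held values for 877 to 1412 probes. Ratios carry no level, so the kidney label could not be checked. Values were present for 18 of 32 listed proximal tubule genes. They were also present for 15 of 20 listed fibroblast, pericyte and smooth muscle genes, so having a value does not tell the tissue.

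Fibrillar collagens are triple helices of long chains that give tissue its tensile strength, and in the kidney they lie mainly in the interstitium and around vessels. Col1a1 and Col3a1 encode chains of type I and type III collagen, which are made chiefly by fibroblasts and related mesenchymal cells. In the endoplasmic reticulum, prolyl 4-hydroxylase, whose catalytic subunit is P4ha1, modifies prolines that stabilise the helix, and the chaperone Serpinh1, also known as HSP47, binds the folded procollagen. After secretion, proteases cut the ends of procollagen before fibrils assemble.

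By group mean, the 4 genes lay on the positive side in 3 groups, SS overnight, SS 3 days and SS-13BN/Mcw overnight, and 3 of them lay near 0 in SS-13BN/Mcw 3 days. Averaged over the 4 groups, all 4 passed the test at an adjusted p under 0.05 (limma, Benjamini-Hochberg over 822 probes). The share of all probes that passed on the positive side there was 13.4 percent. Col1a1 stood at 0.69 (SE 0.110, adjusted p = 0.00118), the highest mean of the 822 probes. Serpinh1 stood at 0.43 (SE 0.0481, adjusted p = 0.00013), P4ha1 at 0.41 (SE 0.0983, adjusted p = 0.0125) and Col3a1 at 0.38 (SE 0.0791, adjusted p = 0.00535). This mean joins groups that share rats within a strain.

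**Figure D1:**
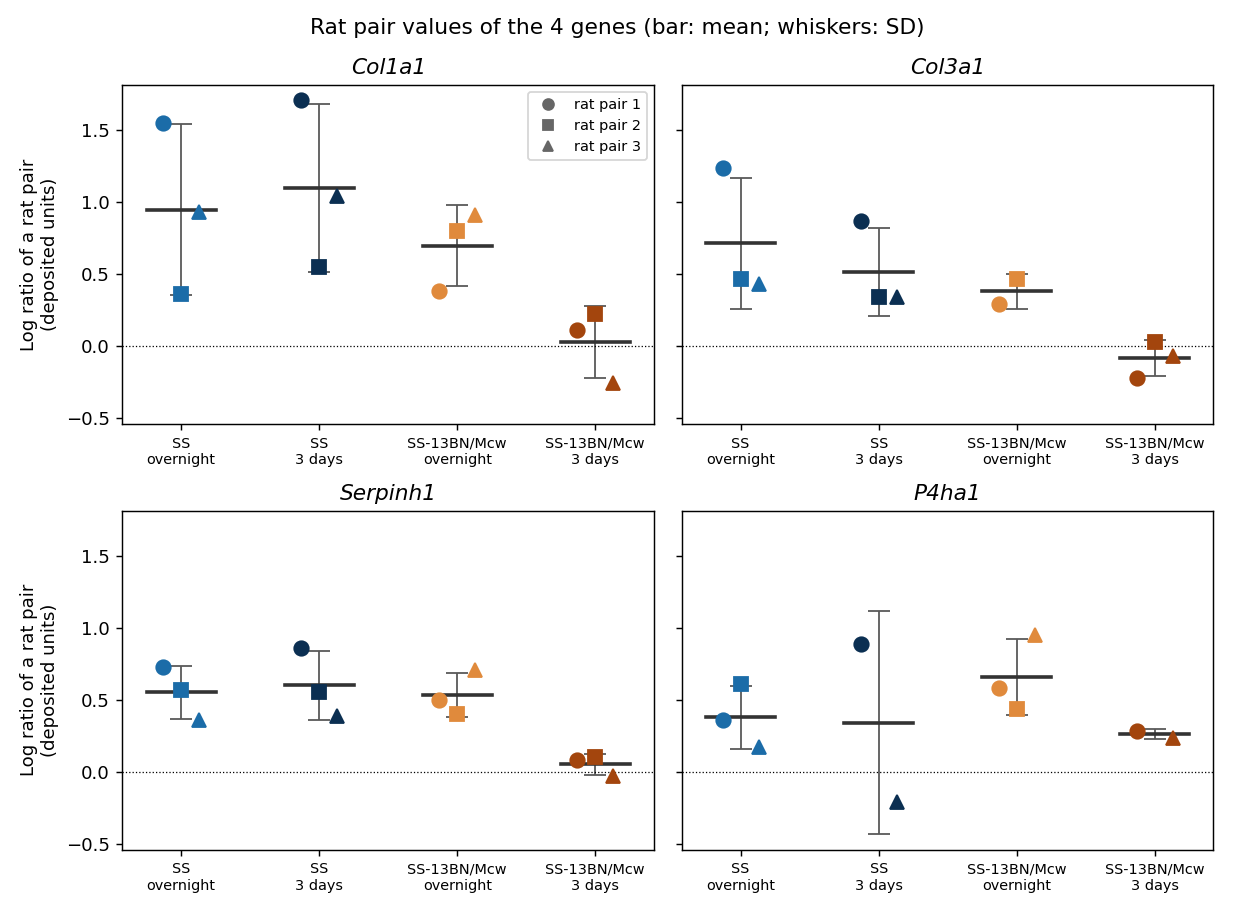
Median-centred log ratio (vertical axis, log ratio units) of each rat pair, as the mean of its swapped arrays, by group for the 4 genes, with a bar for the group mean and its SD. Col1a1 spans 0.36 to 1.71 in the SS groups and -0.25 to 0.22 in SS-13BN/Mcw 3 days.

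Col1a1, a chain of type I collagen, had pair values of 1.55, 0.36 and 0.93 in SS overnight for pairs 1, 2 and 3. In SS 3 days they were 1.71, 0.55 and 1.04. In both SS groups pair 1 was the highest and pair 2 the lowest, and a pair number shares its low-numbered rat over the times. The SS-13BN/Mcw pairs stood at 0.38, 0.80 and 0.91 overnight and at 0.11, 0.22 and -0.25 at 3 days. Pair 3 was thus the highest of its strain overnight and the lowest at 3 days. The 3-day pairs of the strain all lay below its overnight pairs, as in 11.3 percent of 745 probes.

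The group means of Col1a1 were 0.95 ± 0.60 (SD, n = 3) in SS overnight, 1.10 ± 0.58 in SS 3 days, 0.70 ± 0.28 in SS-13BN/Mcw overnight and 0.03 ± 0.25 in SS-13BN/Mcw 3 days. It had the highest mean of all 1139 probes tested in SS overnight and of all 883 in SS 3 days, and the seventh highest of 1100 in SS-13BN/Mcw overnight. None of the 4 means passed the test, with adjusted p of 0.0591, 0.0650, 0.0651 and 0.962 in the same order. Under the replicate block, a fit that takes pairs of 1 low-numbered rat as linked over time, Col1a1 passed in the first 3 of these groups with adjusted p of 0.0376, 0.0425 and 0.0451. The means were the same in both fits, so the call turned on how the spread between pairs was modelled.

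Col3a1, the single chain of type III collagen, had values of 1.23, 0.47 and 0.43 in SS overnight and 0.87, 0.34 and 0.34 in SS 3 days. Pair 1 was again apart from the other pairs at both times. In SS-13BN/Mcw overnight, pairs 1 and 2 stood at 0.29 and 0.47, and pair 3, with 1 array only at 1.21, was left out of the mean. In SS-13BN/Mcw 3 days the values were -0.22, 0.03 and -0.07, all below the lowest pair of the other groups. The share of all probes that did so was not counted.

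Col3a1 passed the test in SS overnight at 0.71 ± 0.45 (SD, n = 3, adjusted p = 0.0435). There 2 of the 4 genes, Col3a1 and Serpinh1, passed on the positive side, where 0.966 percent of all probes did. Without pair 1 the mean of Col3a1 was 0.45 (adjusted p = 0.382), without pair 2 it was 0.83 (adjusted p = 0.0810) and without pair 3 it was 0.85 (adjusted p = 0.0629). Of all probes 0 of 1073, 6 of 1085 and 0 of 1065 passed in these fits. With pairs of 1 orientation kept in the fit, where 9 of 1299 probes passed, the mean of Col3a1 in SS overnight was the same. Its call was lost (adjusted p = 0.109). Its other means did not pass, at 0.52 ± 0.31 in SS 3 days (adjusted p = 0.172), 0.38 ± 0.12 in SS-13BN/Mcw overnight (n = 2, adjusted p = 0.184) and -0.09 ± 0.13 in SS-13BN/Mcw 3 days (adjusted p = 0.827).

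Serpinh1 is known as a heat shock protein that binds procollagen, and its promoter is shown for the motif of the heat shock factors. The bases come from RefSeq (GRCr8) and end 1 base before the gene's start. They run 5′ to 3′ along the gene, and the capitals mark a match to 3 heat shock units in a row, TTC, GAA and TTC with any 2 bases between neighbours.
Serpinh1 promoter, chr1:163062977-163063226, minus strand: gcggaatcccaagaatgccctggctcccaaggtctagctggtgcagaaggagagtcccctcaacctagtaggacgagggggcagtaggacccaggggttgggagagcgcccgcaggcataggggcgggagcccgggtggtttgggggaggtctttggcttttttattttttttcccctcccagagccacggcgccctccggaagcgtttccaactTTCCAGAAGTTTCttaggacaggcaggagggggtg

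The match lies 35 to 23 bases before the start. Searched on both strands in the same 250 bases, 222 of 33469 RefSeq promoters held it, or 0.663 percent. The form of 2 units, GAA and TTC with any 2 bases between, overlaps it here and was in 7.23 percent of promoters, and a GC box, GGGCGG, 129 to 124 bases before the start, in 30.5 percent. The window held no match to the core of the hypoxia response element (ACGTG, in 16.6 percent of promoters), the CCAAT box (34 percent) or the TATA box searched as TATAAA (12.9 percent). The window of P4ha1 held none of the 6 motifs searched. These matches describe letters only, and the arrays carry no measure of binding.

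Serpinh1 had the smallest SD of the 4 genes in both SS groups. Its pairs stood at 0.73, 0.57 and 0.36 in SS overnight, at 0.86, 0.55 and 0.39 in SS 3 days and at 0.50, 0.40 and 0.70 in SS-13BN/Mcw overnight. In SS-13BN/Mcw 3 days they stood at 0.08, 0.10 and -0.03. The 9 pairs of the first 3 groups all lay above every pair of the last. The share of all probes with this pattern was not counted. For 3 pairs against 3 it was 7.39 percent with SS 3 days above SS-13BN/Mcw 3 days. It was 11.3 percent with SS-13BN/Mcw 3 days below SS-13BN/Mcw overnight.

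The mean of Serpinh1 passed the test in each of the first 3 groups, at 0.55 ± 0.18 in SS overnight (SD, n = 3, adjusted p = 0.0208), 0.60 ± 0.24 in SS 3 days (adjusted p = 0.0320) and 0.54 ± 0.15 in SS-13BN/Mcw overnight (adjusted p = 0.00967). It stood at 0.05 ± 0.07 in SS-13BN/Mcw 3 days (adjusted p = 0.843). Serpinh1 was the 1 gene of the 4 to pass in SS 3 days, where 0.34 percent of all probes passed on the positive side. In SS overnight its call was lost without pair 1, 2 or 3 (adjusted p of 0.246, 0.0810 and 0.0599). Of all probes 0 of 1073, 6 of 1085 and 0 of 1065 passed in these fits. In SS 3 days the call of Serpinh1 was lost without pair 1 (0.175) or pair 2 (0.104), where 0 of 772 and 0 of 845 probes passed. In SS-13BN/Mcw overnight it was lost without pair 3 (0.0666), where 12 of 1022 probes passed. Fitted on 1 group alone, the call of Serpinh1 was lost in SS 3 days (0.384) and in SS-13BN/Mcw overnight (0.0581). Fitted so, 0 of 883 and 0 of 1100 probes passed in these groups.

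P4ha1, the catalytic subunit of prolyl 4-hydroxylase, had values of 0.36, 0.61 and 0.17 in SS overnight and 0.58, 0.44 and 0.95 in SS-13BN/Mcw overnight. At 3 days only pairs 1 and 3 had both orientations, at 0.89 and -0.21 in SS and at 0.28 and 0.24 in SS-13BN/Mcw. The SS pairs at 3 days lay on opposite sides of 0, the widest gap of this gene. The single arrays of pair 2 read -0.0072 in SS and -0.031 in SS-13BN/Mcw and were left out.

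P4ha1 passed the test in SS-13BN/Mcw overnight alone, at 0.66 ± 0.27 (SD, n = 3, adjusted p = 0.0419). There it was 1 of 2 of the 4 genes to pass, beside Serpinh1, where 3.18 percent of all probes passed on the positive side. The call was lost without pair 1, 2 or 3 (adjusted p of 0.0878, 0.0758 and 0.224) and with that group fitted alone (0.0581). In these fits, in the same order, 92 of 936, 45 of 988, 12 of 1022 and 0 of 1100 probes passed. The other means of P4ha1 were 0.38 ± 0.22 in SS overnight (adjusted p = 0.329), 0.34 ± 0.78 in SS 3 days (n = 2, adjusted p = 0.549) and 0.26 ± 0.03 in SS-13BN/Mcw 3 days (n = 2, adjusted p = 0.582). In SS-13BN/Mcw 3 days 0 of the 4 genes passed by limma, where 0.662 percent of all probes passed on the positive side. None of the 4 had an unadjusted p under 0.05 there, beside 16.6 percent of all probes.

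The dye orientations of a pair were compared for each gene. Col1a1 had the same sign in both orientations in 12 of 12 pairs, with a median absolute difference of 0.066 between them. Serpinh1 also had the same sign in 12 of 12 pairs, with a median difference of 0.130, and Col3a1 in 10 of 11, with 0.238. P4ha1 had the same sign in 7 of 10 pairs, and its median difference was 0.498, larger than its mean in 3 of the 4 groups.

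P4ha1 was higher with the low-numbered rat in Cy3 in 10 of 10 pairs. With that rat in Cy3 its arrays ranged from 0.17 to 1.20 (10 arrays), and with it in Cy5 from -0.58 to 0.84 (12 arrays, 7 of them positive). Such a one-sided difference was common, since 281 of 831 probes, or 33.8 percent, had 1 sign of it in every pair. Averaging the orientations removes a dye difference of equal size in both, and the P4ha1 pairs with 1 orientation only were therefore not used.

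**Figure D2:**
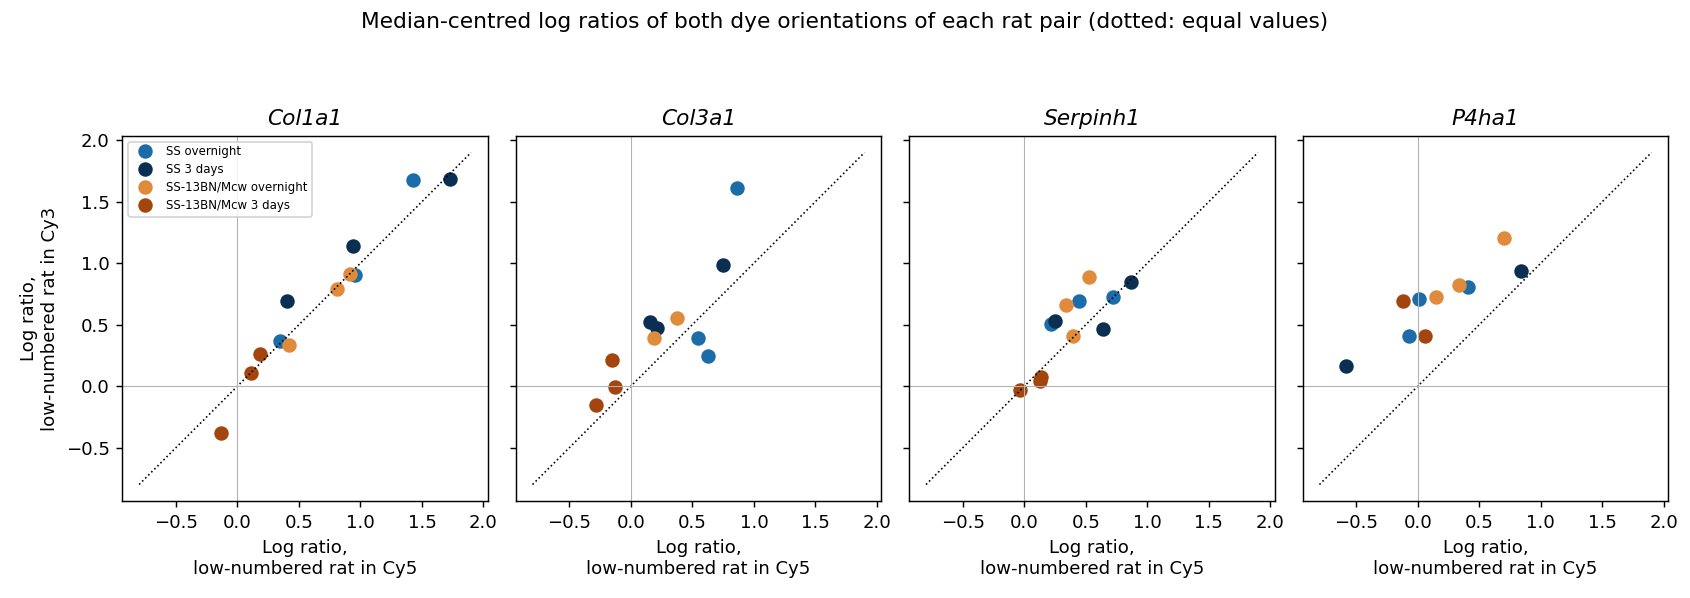
Median-centred log ratio of each pair with the low-numbered rat in Cy5 (horizontal axis) and in Cy3 (vertical axis), in log ratio units, for the 4 genes; points on the dotted line are equal. Col1a1 lies along the line with a median absolute difference of 0.066, and P4ha1 lies above it in 10 of 10 pairs.

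The first question set by the groups is whether the strains differed at each time. Overnight, the SS and SS-13BN/Mcw pairs overlapped for all 4 genes. The difference, SS minus SS-13BN/Mcw, was 0.02 for Serpinh1, with a 95% interval of -0.28 to 0.31. It was 0.25 for Col1a1 (-0.42 to 0.93), 0.33 for Col3a1 (-0.18 to 0.85) and -0.28 for P4ha1 (-0.83 to 0.27). With the 1 array of pair 3 kept, the mean of Col3a1 in SS-13BN/Mcw overnight was 0.66 (adjusted p = 0.0589) in place of 0.38, and its strain difference was 0.06 in place of 0.33. All 4 intervals hold 0 and also differences as large as some group means, so the strains were not shown to be alike.

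At 3 days, Col1a1, Col3a1 and Serpinh1 had every SS pair above every SS-13BN/Mcw pair, as did 7.39 percent of the 704 probes with 3 pairs in both groups. The difference was 1.07 for Col1a1 (95% interval 0.39 to 1.75, adjusted p = 0.299), the second highest of 824 probes. It was 0.60 for Col3a1 (0.14 to 1.07, adjusted p = 0.455) and 0.55 for Serpinh1 (0.25 to 0.84, adjusted p = 0.193). P4ha1 differed by 0.08 (-0.60 to 0.76, adjusted p = 0.931) and its pairs overlapped. By limma, 0 of the 4 genes passed either strain comparison, as did 0 percent of all probes. At an unadjusted p under 0.05 there were 53 of 1053 probes overnight and 69 of 824 at 3 days.

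A fit on single arrays with the rat pair as a random block called 7 of 824 probes at 3 days. Among them were Col1a1 (adjusted p = 0.00883) and Serpinh1 (adjusted p = 0.00865). Its correlation within pairs was -0.0536, so it treated swapped arrays of the same rats almost as separate samples. Each SS group had slide numbers apart from those of every other group, so slide order and strain cannot be told apart in these differences.

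The second question is whether the times differed within a strain. In SS, the difference of 3 days minus overnight was 0.15 for Col1a1, 0.05 for Serpinh1, -0.04 for P4ha1 and -0.20 for Col3a1, each with an adjusted p of 0.988. The pairs of both times overlapped for all 4 genes. The SS groups had slide numbers apart from each other, so slide order and time cannot be told apart in SS. The values were also set out by low-numbered rat, whose partner was another rat at each time. So taken, 3 days minus overnight was 0.16, 0.19 and 0.11 for Col1a1 and -0.36, -0.13 and -0.09 for Col3a1. Each had 1 sign for 3 of 3 low-numbered rats, which both times share. It was 0.13, -0.02 and 0.03 for Serpinh1. For P4ha1 it was 0.53 and -0.38, for the low-numbered rats with a pair value at both times.

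In SS-13BN/Mcw, all measured pairs at 3 days lay below all measured pairs overnight for each of the 4 genes. Of 745 probes with 3 pairs at both times, 11.3 percent did so, a set that holds Col1a1 and Serpinh1. Col3a1 and P4ha1 had 2 pairs in 1 of the groups. No share was counted for 2 pairs against 3, so theirs has none beside it. The difference was -0.67 for Col1a1 (95% interval -1.35 to 0.01, adjusted p = 0.431) and -0.48 for Serpinh1 (-0.78 to -0.19, adjusted p = 0.282). It was -0.46 for Col3a1 (adjusted p = 0.456) and -0.40 for P4ha1 (adjusted p = 0.550). In this strain, unlike in SS, the slide numbers of both times were interleaved.

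By limma, 0 of the 4 genes passed in either strain, as did 0 percent of all probes. At an unadjusted p under 0.05 there were 17 of 880 probes in SS and 101 of 897 in SS-13BN/Mcw. This fit takes the times of a strain as independent. Under the replicate block, which links pairs of 1 low-numbered rat, there were 35 of 880 and 158 of 897, and 0 probes passed in either strain. The fit on single arrays called 0 of 880 and 9 of 897 probes, and Serpinh1 was the 1 gene of the 4 among them. By low-numbered rat in SS-13BN/Mcw, again with other partners at 3 days, the difference was -0.27, -0.58 and -1.17 for Col1a1. It was -0.42, -0.30 and -0.74 for Serpinh1. Low-numbered rat 3 had the widest difference of both genes.

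**Figure D3:**
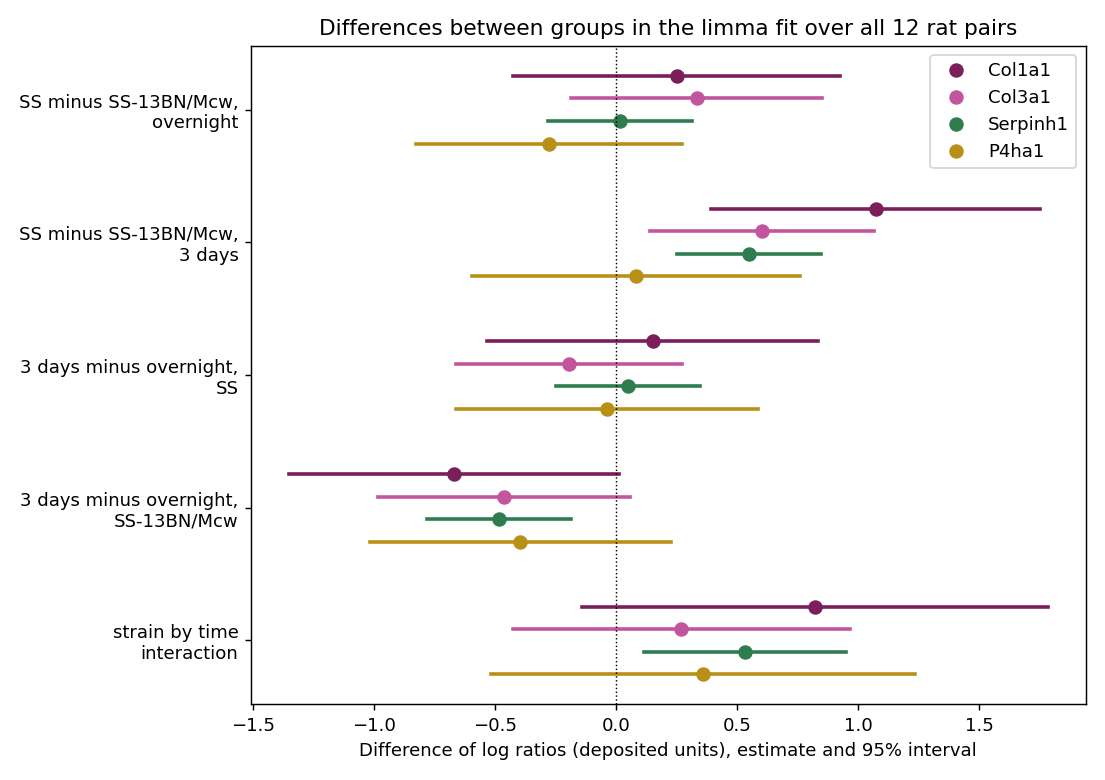
Estimated differences between groups (horizontal axis, log ratio units) for the 4 genes, with bars for the 95% interval of the fit. The SS minus SS-13BN/Mcw difference at 3 days is 1.07 for Col1a1, 0.60 for Col3a1 and 0.55 for Serpinh1, with intervals above 0 before adjustment over all probes.

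Whether the change over time itself differed between the strains was tested as an interaction. It was 0.82 for Col1a1 (95% interval -0.14 to 1.78), 0.53 for Serpinh1 (0.11 to 0.95), 0.36 for P4ha1 (-0.52 to 1.23) and 0.27 for Col3a1 (-0.43 to 0.97). Each had an adjusted p of 0.972, and 0 of the 4 genes passed, as did 0 percent of 822 probes. At an unadjusted p under 0.05 there were 20 of 822 probes, Serpinh1 among them (0.0170), and the fit on single arrays called 0. Slide order of the SS groups cannot be told apart from strain and time here.

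Set among all probes, Col1a1 and Serpinh1 stood high in each of the 9 pairs outside SS-13BN/Mcw 3 days, and Col3a1 in the 8 of them where it was measured. Col1a1 lay above at least 96.8 percent of the probes of each such pair, Serpinh1 above at least 93.9 percent and Col3a1 above at least 92.7 percent. In each of these 3 groups, all 3 pairs of Col1a1 and of Serpinh1 were positive, as were those of 22.6 percent of probes in SS overnight, 14.2 percent in SS 3 days and 29.7 percent in SS-13BN/Mcw overnight. In SS-13BN/Mcw 3 days, where 19.4 percent of probes had 3 positive pairs, neither of these genes nor Col3a1 had them. P4ha1 differed, above 82.18 percent of probes in SS overnight pair 3 and 13.65 percent in SS 3 days pair 3. In its other measured pairs of the first 3 groups it lay above at least 90.68 percent. In SS-13BN/Mcw 3 days it lay above 95.06 percent in pair 1 and 83.26 percent in pair 3. Pairs of a strain share rats over the times.

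**Figure D4:**
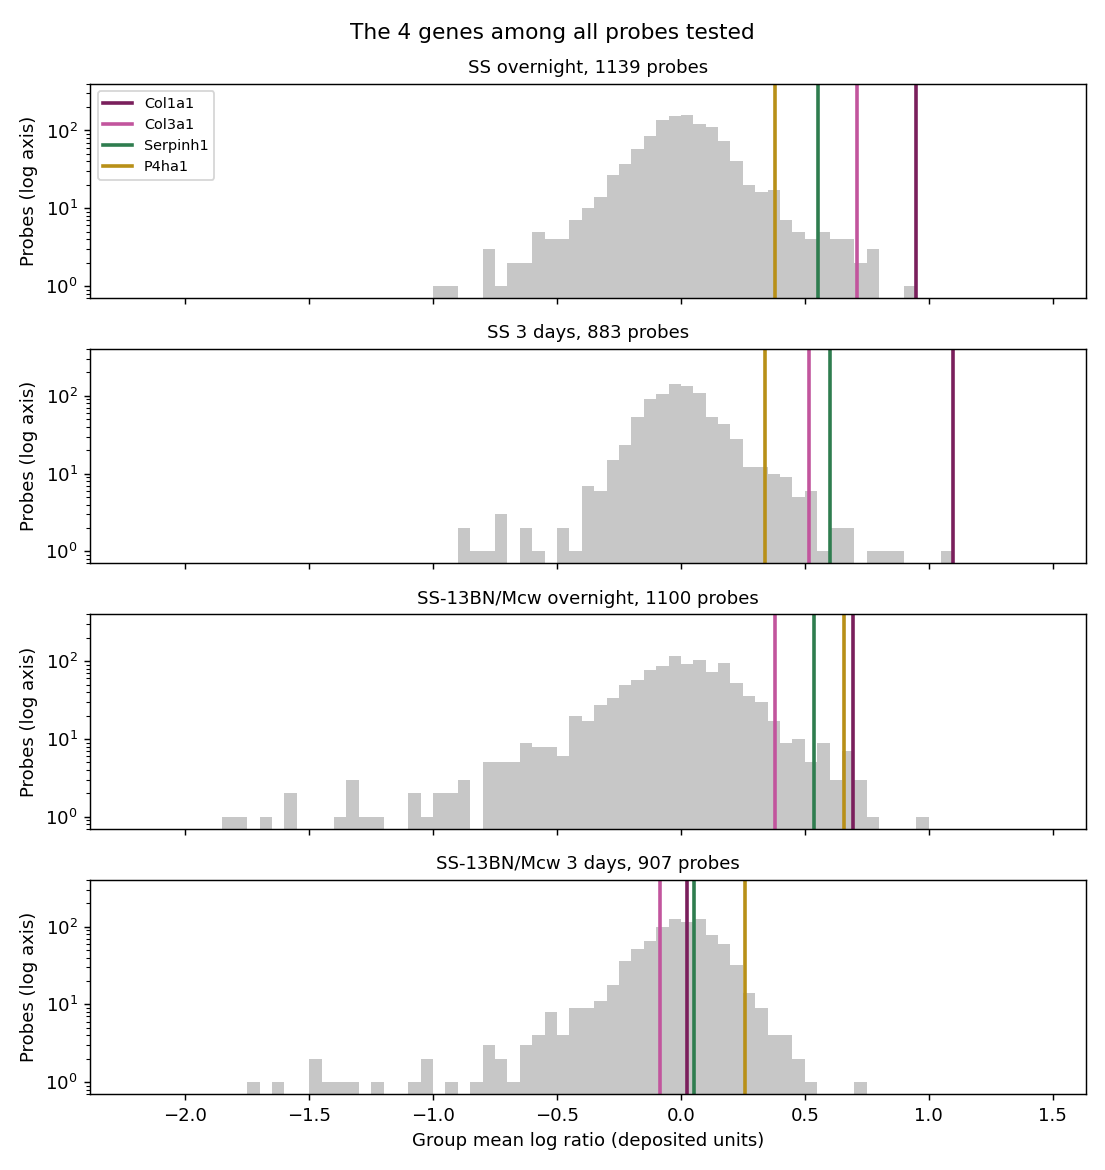
Distribution of group means over all probes tested (horizontal axis, log ratio units; vertical axis, number of probes on a log scale) with the means of the 4 genes marked. Col1a1 has the highest mean in SS overnight (0.95) and SS 3 days (1.10) and lies at 0.03 in SS-13BN/Mcw 3 days.

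The pair values of the genes were set against each other as a description. The points share rats within a strain and the means of their groups. Col1a1 and Col3a1 had a Pearson r of 0.88 over 11 pairs (Spearman rho 0.81), and 0.76 without the 2 pairs farthest from the median of Col1a1. Col3a1 and Serpinh1 had r of 0.88 over 11 pairs, and Col1a1 and Serpinh1 0.81 over 12. After each group mean was taken off, these r were 0.81, 0.73 and 0.58. P4ha1 was less like the collagen chains, with r of 0.21 for Col1a1 over 10 pairs and 0.34 for Col3a1 over 9, and more like Serpinh1, with 0.62 over 10.

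Among other genes measured in at least 10 pairs, the 5 most alike to each were listed by Pearson r over the pair values. For Col1a1, among 704 probes, they were Tagln (0.94), an actin-binding protein of smooth muscle, Myo9b (0.92), Fcgr2a (0.85), Apoe (0.84) and Xdh (0.84). For Col3a1 they were Fcgr2a (0.96), an immunoglobulin receptor of myeloid cells, Tagln (0.94), Mgp (0.92), a matrix protein that binds mineral, Apoe (0.92) and Nme1 (0.90). The collagen chains thus had Tagln, Fcgr2a and Apoe in common.

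For Serpinh1 the most alike were Timp1 (0.94), an inhibitor of matrix metalloproteinases, Ctss (0.93), a lysosomal protease, Nfkb1 (0.93), Serpina3n (0.91) and Pcolce (0.91), which enhances the cutting of procollagen. For P4ha1 they were Tpi1l1 (0.96), Cd81 (0.93), Map2k1 (0.93), Gtf2a2 (0.92) and Akr1b1 (0.91), none of them on the list of another of the 4 genes. These are the highest of 643 to 704 values for each gene over 10 to 12 pairs that share rats, and they carry no test. After each group mean was taken off, r with Serpinh1 was 0.66 for Timp1 and 0.74 for Serpina3n. It was 0.95 for Ctss, 0.89 for Nfkb1 and 0.89 for Pcolce. In the lists of the other genes it ranged from 0.81 (Fcgr2a with Col1a1) to 0.95 (Myo9b with Col1a1).

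The wider list of fibrillar collagen and collagen processing named 39 genes, of which 12 had values, the 4 genes included. In SS overnight, 11 of 11 tested genes were positive, with a median of 0.38, or 0.10 over the 7 without the 4 genes, against 0.01 over all probes. In SS-13BN/Mcw overnight 11 of 11 were positive, with a median of 0.32, or 0.20 over the other 7. In SS 3 days 9 of 10 were positive (median 0.38, or 0.14 over the other 6), and in SS-13BN/Mcw 3 days 6 of 10 (median 0.03, or 0.01 over the other 6). About as many probes of the whole table were positive as negative, with 48.7 to 51.6 percent positive by group. None of the genes beside the 4 passed the test in a single group. With the 4 genes, the list had 6, 5, 7 and 0 genes at an unadjusted p under 0.05 in SS overnight, SS 3 days, SS-13BN/Mcw overnight and SS-13BN/Mcw 3 days. The share of all probes at that level was 15.3, 12.2, 30.5 and 16.6 percent in the same order.

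Pcolce, the enhancer of the protease that trims procollagen, stood at 0.48 ± 0.22 (SD, n = 3) in SS overnight, 0.52 ± 0.47 (n = 2) in SS 3 days, 0.48 ± 0.44 (n = 3) in SS-13BN/Mcw overnight and -0.03 ± 0.09 (n = 2) in SS-13BN/Mcw 3 days. Col2a1, the type II collagen chain known from cartilage, read 0.40 ± 0.43, 0.43 ± 0.06, 0.32 ± 0.20 (n = 2) and -0.01 ± 0.00491 (n = 2) in the same order. Both had means near 0 in SS-13BN/Mcw 3 days, as the collagen chains had. Over the mean of the 4 groups, 9 of 9 tested genes of the list were positive, beside 52.3 percent of all probes. Of these genes 7 passed, beside 13.4 percent of all probes on the positive side. They were the 4 genes with Pcolce (0.36, adjusted p = 0.0151), Col2a1 (0.28, adjusted p = 0.0154) and Ppib (0.11, adjusted p = 0.0317). Ppib is a prolyl isomerase of the endoplasmic reticulum.

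P4hb, the other subunit of prolyl 4-hydroxylase, had means of 0.09, 0.03, 0.00383 and 0.04 by group and was not called in any, beside means of 0.38, 0.34, 0.66 and 0.26 for P4ha1. Plod1, a lysyl hydroxylase of collagen, had 0.25, 0.17, 0.26 and, from 1 pair, 0.19, and was not called. Sparc, a collagen-binding protein, ranged from -0.00304 to 0.20 by group, and Col5a2, a type V collagen chain, from -0.04 to 0.18.

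**Figure D5:**
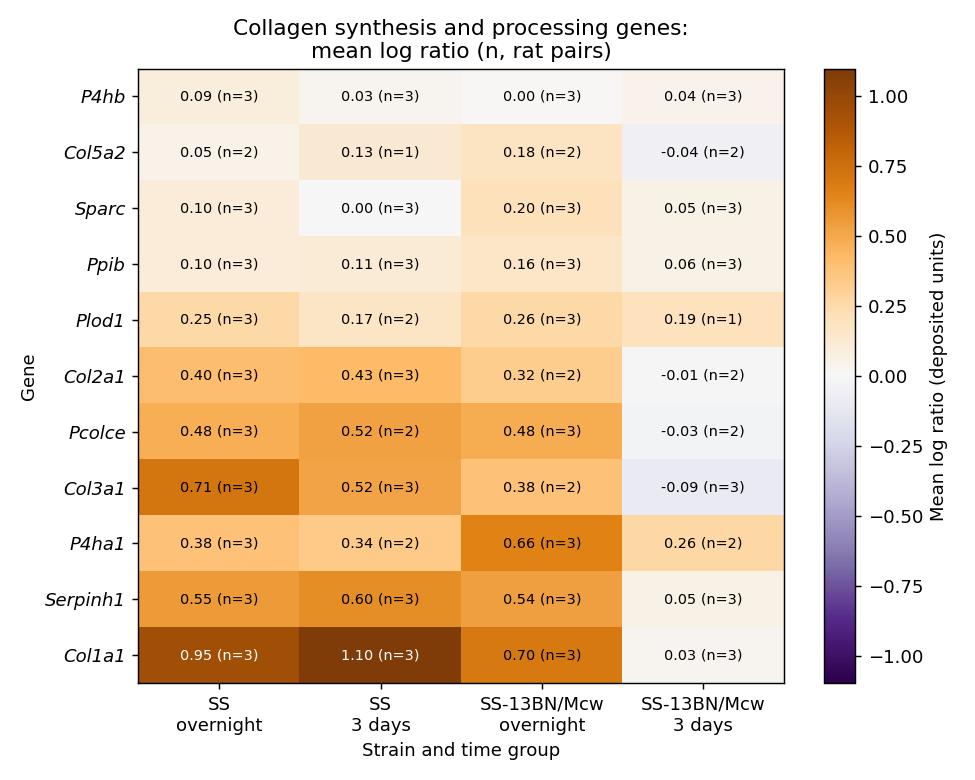
Mean log ratio by group (colour and number, log ratio units, with the number of pairs) for the genes of collagen and its processing that had a value in at least 1 group. Pcolce is at 0.48, 0.52, 0.48 and -0.03 over the 4 groups and P4hb lies within 0.09 of 0 in all of them.

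Of the list of other collagens and matrix components, 7, 6, 7 and 6 genes were tested by group, and 5, 4, 6 and 3 of them were positive. By limma 0 passed in a single group, and 3, 2, 3 and 0 had an unadjusted p under 0.05, beside 15.3, 12.2, 30.5 and 16.6 percent of all probes. Bgn (0.32), Spp1 (0.12) and Nid1 (0.16), 3 of 6 tested genes, passed over the mean of the 4 groups. Of all probes 13.4 percent passed there on the positive side. Dcn, a proteoglycan that binds collagen fibrils, stood at 0.38, 0.40, 0.45 and -0.35 by group without a call. In the list of matrix breakdown and its inhibitors, 10, 7, 10 and 8 genes were tested by group. Timp1 passed in SS overnight (0.76 ± 0.17, n = 3, adjusted p = 0.0109) and in SS-13BN/Mcw overnight (0.71 ± 0.23, n = 3, adjusted p = 0.00627). It stood at 0.16 ± 0.07 in SS-13BN/Mcw 3 days (adjusted p = 0.408). In SS 3 days Timp1 had a value in 1 pair only (0.40) and was not tested. Mmp2, a gelatinase, passed in SS-13BN/Mcw overnight at 0.46 (n = 2), and Ctsl, a lysosomal protease, passed on the negative side in SS-13BN/Mcw 3 days at -0.32. Of all probes 0.966 percent passed on the positive side in SS overnight and 3.18 percent in SS-13BN/Mcw overnight. On the negative side 2.32 percent did in SS-13BN/Mcw 3 days. Over the mean of the 4 groups, with 7 genes tested, Timp2 (0.25), Ctsb (0.16) and Ctsd (0.14) passed, beside 13.4 percent. Plau (-0.14) passed on the negative side, beside 15.1 percent.

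Lists of upstream and folding genes were described in the same way. Of transforming growth factor beta signalling, a pathway that raises collagen transcription, 5, 5, 5 and 4 genes were tested by group. By limma 0 passed, and 0, 0, 1 and 1 had an unadjusted p under 0.05, beside the same 15.3, 12.2, 30.5 and 16.6 percent of all probes. Ccn2, a target of that pathway, stood at 0.27, 0.27, 0.40 and 0.21 by group and passed over their mean (0.29, adjusted p = 0.0139). It was 1 of 4 tested genes to do so, beside 13.4 percent of all probes on the positive side. Of 7 measured genes of folding in the endoplasmic reticulum, Calr, a calcium-binding chaperone, passed in SS overnight (0.33, adjusted p = 0.0375) and in SS-13BN/Mcw overnight (0.26, adjusted p = 0.0363). Ddit3, a stress transcription factor, passed in SS-13BN/Mcw overnight (0.35, adjusted p = 0.0173). The share of all probes that passed on the positive side was 0.966 percent in SS overnight and 3.18 percent in SS-13BN/Mcw overnight. Over the mean of the 4 groups 4 of 7 folding genes passed, Calr (0.27), Ddit3 (0.19), Ssr4 (0.14) and Ppib (0.11), beside 13.4 percent. Of 3 measured heat shock genes Serpinh1 was the 1 to pass in any group, and of 7 tested hypoxia-inducible genes P4ha1 was the 1 to pass in SS-13BN/Mcw overnight. The shares of all probes are those just given, with 0.34 percent in SS 3 days. Over the mean of the 4 groups 1 of 3 heat shock and 3 of 7 hypoxia-inducible genes passed, beside 13.4 percent.

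In bulk kidney, fewer cells of a type and less RNA per cell cannot be told apart. Markers of fibroblasts, pericytes and smooth muscle, the cells that make most collagen, had 15 of 20 listed genes measured. By limma 0 passed in a single group, and 3 of 12, 3 of 10, 4 of 10 and 0 of 10 tested genes had an unadjusted p under 0.05, beside 15.3, 12.2, 30.5 and 16.6 percent of all probes. Their median was 0.04 in SS overnight (6 of 12 positive), 0.26 in SS 3 days (6 of 10), 0.31 in SS-13BN/Mcw overnight (8 of 10) and -0.05 in SS-13BN/Mcw 3 days (4 of 10). The mean over the list ranged by pair from 0.00206 to 0.43 in SS overnight, from -0.07 to 0.57 in SS 3 days and from 0.09 to 0.79 in SS-13BN/Mcw overnight. In SS-13BN/Mcw 3 days it ranged from -0.13 to -0.00022, below all pairs of SS-13BN/Mcw overnight. Over the mean of the 4 groups 4 of 10 tested genes passed, Tagln (0.56), Pdgfra (0.40), Mgp (0.39) and Vim (0.26). Of all probes 13.4 percent passed there on the positive side. The list, like Col1a1, Col3a1 and Serpinh1, had its lowest pair value in SS-13BN/Mcw 3 days, and its part in the results was not tested.

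Proximal tubule markers lay on the negative side in all 4 groups, in 14 of 16, 12 of 13, 16 of 18 and 14 of 16 tested genes. Their medians were -0.58, -0.61, -1.11 and -0.97. In SS-13BN/Mcw overnight 14 passed on the negative side, where 7.36 percent of all probes did, and in SS-13BN/Mcw 3 days 9 did, against 2.32 percent. In SS-13BN/Mcw 3 days, where Col1a1, Col3a1 and Serpinh1 were near 0, the list mean still ranged from -1.12 to -0.75 by pair. Markers of the thick ascending limb and distal tubule had medians of -0.11, -0.25, -0.19 and 0.01, and those of the collecting duct -0.12, -0.14, -0.16 and 0.28. In SS-13BN/Mcw 3 days 4 of 4 collecting duct genes were positive and 1 passed, beside 0.662 percent of all probes on that side. An unadjusted p under 0.05 was reached by 3 of them, beside 16.6 percent of all probes. Of 5 distal genes 1 passed on the negative side in SS-13BN/Mcw overnight, beside 7.36 percent. Of endothelial markers, 2 of 14 listed genes were measured. Vcam1, an adhesion molecule of activated endothelium, passed in SS overnight (0.59 ± 0.18, n = 3, adjusted p = 0.0316) and in SS-13BN/Mcw overnight (0.52 ± 0.07, n = 3, adjusted p = 0.0191) and stood at 0.10 ± 0.36 (n = 2) in SS 3 days. Kdr, a receptor of vascular endothelial growth factor, ranged from -0.04 to 0.20 by group without a call. Of immune cell markers, 3 of 20 were measured, and C1qb, a complement component of macrophages, stood at 0.33 and 0.28 in the SS groups without a call. The part of tubule, endothelial and immune cells in the values of the 4 genes was not tested.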

How the data were processed

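The authors deposited 1 log ratio per probe and array, treated here as a score because the sources used here do not give its log base, numerator or earlier processing. Per the labels, each array compared kidney total RNA of 2 rats in Cy5 and Cy3. Deposited array means were within 0.00082 of 0 and medians within 0.067. Of 3742 probe identifiers 1766 had values, 1426 of them with 1 symbol, 29 with several and 311 with none. Of 8 identifiers of the 4 genes, 4 had values.

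Arrays were centred on their median and swapped arrays averaged to 12 pair values. They were not turned by dye, because with the orientation mean removed swapped arrays correlated above 0 in 12 of 12 pairs (r from 0.169 to 0.825). Raw correlations of swapped arrays ranged from -0.0595 to 0.749, with 4 of 12 below 0. limma 3.58.1 in R 4.3.3 (statmod 1.5.0) fitted 1 coefficient per group, with eBayes and two-sided p-values, adjusted over all probes by Benjamini-Hochberg, at a threshold of 0.05. A probe needed 2 of 3 pairs with both orientations in each group compared. The p-values rest on the spread among rat pairs. The number of arrays limits the precision. Scripts were tested on simulated data, and figures used Python 3.11.15 with matplotlib 3.10.9.

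The 4 genes, the gene lists, tests and alternatives were chosen with earlier results of these data known. Named list genes were those past the threshold and up to 4 more of smallest p, with others named after their values were seen. Low rat numbers in the titles repeat at both times of a strain, and deviations from group means correlated over all probes for the same low rat at 0.436, -0.053 and 0.616 in SS and at 0.362, 0.290 and 0.269 in SS-13BN/Mcw. The block fit used duplicateCorrelation. Alternatives were no centring, 2 other scalings, turning by dye, 1 orientation kept, 3 pairs required, single arrays, the block, the compared groups alone and each pair left out.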

Additional observations from a re-analysis of the deposited data

How the results depend on the processing

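Of 550 values of the 4 genes under an alternative, 468 kept their direction and side of the threshold, 17 lost the threshold, 21 gained it and 44 turned in sign. With the array that has the low-numbered rat in Cy3 turned in sign, the pair value is built from the difference between orientations in place of their mean. Over all probes 325 of 1139, 344 of 883, 309 of 1100 and 299 of 907 then passed by group, against 13, 3, 116 and 27. Under it Col1a1, Col3a1, Serpinh1 and P4ha1 read -0.0357, -0.0351, -0.0897 and -0.262 in SS overnight and -0.0749, -0.144, -0.0142 and -0.212 in SS 3 days. Col3a1, Serpinh1 and P4ha1 read -0.0962, -0.116 and -0.262 in SS-13BN/Mcw overnight, and P4ha1 read -0.291 in SS-13BN/Mcw 3 days. The means of the 4 groups were -0.0161 for Col1a1, -0.0947 for Col3a1, -0.0490 for Serpinh1 and -0.257 for P4ha1. The strain difference was -0.0534 for Col1a1 overnight, and at 3 days -0.103 for Col1a1, -0.0406 for Col3a1 and -0.0384 for Serpinh1. The time difference was -0.0393 for Col1a1 and 0.0503 for P4ha1 in SS, and 0.0107 for Col1a1 and 0.141 for Serpinh1 in SS-13BN/Mcw. The interaction was -0.0500 for Col1a1, -0.102 for Col3a1 and -0.0650 for Serpinh1. So turned, 1 of the 4 genes passed in SS overnight, 0 in SS 3 days, 1 in SS-13BN/Mcw overnight, 1 in SS-13BN/Mcw 3 days and 1 over the mean of the 4 groups.

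Counts of the 4 genes past the threshold moved under other alternatives too. In SS overnight the count of 2 became 1 with pairs of 1 orientation kept, and 0 to 0 with each pair left out. Of all probes 9 of 1299 passed there with 1 orientation kept. Without pairs 1, 2 and 3 it was 0 of 1073, 6 of 1085 and 0 of 1065. In SS 3 days the count of 1 became 2 with arrays scaled to one spread, 3 with quantile normalization, 3 with single arrays fitted, 2 with the replicate block, 0 with the group alone and 0 to 1 with each pair left out. Of all 883 probes 9, 18, 39, 5 and 0 passed under the first 5 of these. Without pairs 1, 2 and 3 it was 0 of 772, 0 of 845 and 10 of 800. In SS-13BN/Mcw overnight the count of 2 became 4 with single arrays, 0 with the group alone and 0 to 1 with each pair left out. Of all probes 218 of 1100 passed there with single arrays and 0 of 1100 with the group alone. Without pairs 1, 2 and 3 it was 92 of 936, 45 of 988 and 12 of 1022. Gains also occurred in both overnight groups. Col1a1, not called in the main fit, passed under 5 of 12 alternatives in SS overnight and 4 of 12 in SS-13BN/Mcw overnight. The replicate block was among them in both. For the strain difference at 3 days the count of 0 became 1 with scaling, 1 with quantile normalization and 2 with single arrays, and between times in SS-13BN/Mcw it became 1 with single arrays. Over the mean of the 4 groups the count of 4 became 2 with 3 pairs required, where only 2 of the genes could be tested.

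Differences near 0 turned in sign under a few settings. Serpinh1 overnight, SS minus SS-13BN/Mcw, was -0.00353 without centring, and its difference of times in SS was -0.0202 with scaling and -0.00431 with quantile normalization. P4ha1 at 3 days, SS minus SS-13BN/Mcw, was -0.00787 with scaling and -0.0962 with quantile normalization. With each pair left out, the mean of Col1a1 in SS-13BN/Mcw 3 days ranged from -0.0730 to 0.165. The strain difference overnight ranged from -0.0509 to 0.545 for Col1a1 and from -0.0711 to 0.111 for Serpinh1. The time difference in SS ranged from -0.154 to 0.452 for Col1a1, -0.372 to 0.0662 for Col3a1, -0.0811 to 0.155 for Serpinh1 and -0.142 to 0.0760 for P4ha1. The cause of these changes was not tested. The fit on the compared groups alone was not run for the interaction and the mean of the 4 groups, which use all groups. With the replicate block, the paired fit, Col1a1 gained the threshold in 3 groups as given, and no other call of the 4 genes changed.

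Precision was limited by 3 rat pairs per group and by 1 probe per gene. Values are ratios of RNA from the whole sample, with no measure of signal over background in the deposited table used here.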
